A study of Mus musculus with 158 samples.

Results

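Very broad hotspots are stretches of at least 3000 bp that DNase I could cut throughout in nuclei of adult mouse cells. In DNase-seq, fragments released from nuclei by the enzyme DNase I are sequenced, and a hotspot is a stretch with more cuts than its surroundings, here at a false discovery rate (FDR) of 5%. The members were chosen by width. Of 3809502 hotspots on the 19 autosomes in 20 sets, 9232 were 3000 bp or wider, those of the 5 sets of a tissue were merged where they overlapped by 1 bp or more, and merged regions found in 2 or more hybrids were kept. This gave 2494 very broad regions, of 745592 regions with a hotspot in 2 or more hybrids (0.334%). Liver held 1355 of them (0.609% of its regions) and B cells 581 (0.561%), while kidney held 313 (0.15%) and lung 245 (0.116%). Because width chose the members, their widths and their number are given as a description, and tests are given only for measures that the width did not use.

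The mice were F1 hybrids of C57BL/6J dams with sires of 5 inbred strains, named B6x129, B6xC3H, B6xCAST, B6xPWK and B6xSPRET after dam and sire. All were untreated and 8 weeks old, and all carry a C57BL/6J genome from the dam. Liver, kidney and lung were whole organs, typically pooled from several mice, so each signal is a mixture of the cell types of the organ. B cells came from femoral marrow after cells bearing CD43 or Mac-1 had been removed. The labels list 2 to 14 libraries per set and 138 in all, but each deposited set pools the libraries of 1 hybrid and tissue, and the 5 hybrids therefore serve as the repeats of a tissue. The hotspot files carry no read depth, and the read totals that the study lists per set entered no test here. The sets held 76055 to 286482 hotspots that covered 28.24 to 125.7 Mb. Embryonic stem cells (mESCs) of B6xCAST, with 1 DNase-seq set and 1 set for CTCF, the DNA-binding protein that anchors chromatin loops, served as an outside measure. RNA-seq of 17 libraries (4 each of liver, kidney and lung and 5 of B cells) gave the transcripts of nearby genes. Positions are in mm10, counted from 1, with genes from GENCODE vM21.

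Most DNase I hypersensitive sites are short, about the space freed when a nucleosome gives way to transcription factors. Wider stretches form where many such sites lie side by side, and they are known from promoters in CpG islands, which stay free of nucleosomes in most cells, and from clusters of enhancers and gene bodies at the highly transcribed genes that give a cell its identity. In liver these are the genes of plasma proteins such as albumin, in B cells those of antigen presentation and of the immunoglobulin loci. Genes of the immediate early response, such as Jun, Myc and Zfp36, answer to a stimulus within minutes and have promoters that are open before it.

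Promoters rich and poor in CpG occurred among the members, and 6 are shown to let their sequences be compared. Each window runs from 250 bases before to 50 bases after the annotated start, 5′ to 3′ on the strand of the gene, from RefSeq on GRCm38.p6, with CG dinucleotides in capitals. The first 3 genes lay in regions that were very broad in several tissues, Jun and Id2 in all 4 and Zfp503 in kidney and lung. The last 3 lay in regions that were very broad in 1 tissue only, Ahsg and Apoa1 in liver and Cytip in B cells. The windows are Jun at chr4:95052173-95052472 (reverse strand), Id2 at chr12:25096043-25096342 (reverse strand), Zfp503 at chr14:21989552-21989851 (reverse strand), Ahsg at chr16:22891765-22892064 (forward strand), Apoa1 at chr9:46228380-46228679 (forward strand) and Cytip at chr2:58160073-58160372 (reverse strand).
Jun: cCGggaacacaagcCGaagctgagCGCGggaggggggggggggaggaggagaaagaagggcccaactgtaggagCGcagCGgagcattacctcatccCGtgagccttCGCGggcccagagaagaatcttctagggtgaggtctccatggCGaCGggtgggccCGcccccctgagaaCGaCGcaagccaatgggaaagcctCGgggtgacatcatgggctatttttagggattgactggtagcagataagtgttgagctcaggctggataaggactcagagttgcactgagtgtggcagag
Id2: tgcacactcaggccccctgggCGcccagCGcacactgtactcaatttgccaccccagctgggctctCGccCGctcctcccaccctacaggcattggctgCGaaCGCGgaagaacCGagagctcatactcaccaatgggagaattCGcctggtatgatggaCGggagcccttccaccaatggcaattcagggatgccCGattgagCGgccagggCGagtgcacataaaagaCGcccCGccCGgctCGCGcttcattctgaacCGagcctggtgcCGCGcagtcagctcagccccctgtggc
Zfp503: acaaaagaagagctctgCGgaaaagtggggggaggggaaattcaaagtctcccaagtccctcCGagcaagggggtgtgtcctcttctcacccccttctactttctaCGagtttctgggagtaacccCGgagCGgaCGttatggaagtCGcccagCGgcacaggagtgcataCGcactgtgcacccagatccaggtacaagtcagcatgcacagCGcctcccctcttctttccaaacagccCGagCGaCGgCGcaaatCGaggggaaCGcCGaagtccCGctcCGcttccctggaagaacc
Ahsg: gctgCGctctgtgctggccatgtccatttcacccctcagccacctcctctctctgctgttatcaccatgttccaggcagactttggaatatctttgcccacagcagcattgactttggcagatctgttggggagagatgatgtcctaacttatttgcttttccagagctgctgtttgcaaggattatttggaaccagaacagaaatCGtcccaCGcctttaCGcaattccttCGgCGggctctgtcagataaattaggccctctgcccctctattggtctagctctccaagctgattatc
Apoa1: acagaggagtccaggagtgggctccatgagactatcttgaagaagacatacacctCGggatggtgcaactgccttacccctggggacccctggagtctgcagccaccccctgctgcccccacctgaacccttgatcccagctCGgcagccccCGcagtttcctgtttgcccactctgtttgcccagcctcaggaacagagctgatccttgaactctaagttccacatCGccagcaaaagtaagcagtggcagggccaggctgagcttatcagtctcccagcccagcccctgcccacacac
Cytip: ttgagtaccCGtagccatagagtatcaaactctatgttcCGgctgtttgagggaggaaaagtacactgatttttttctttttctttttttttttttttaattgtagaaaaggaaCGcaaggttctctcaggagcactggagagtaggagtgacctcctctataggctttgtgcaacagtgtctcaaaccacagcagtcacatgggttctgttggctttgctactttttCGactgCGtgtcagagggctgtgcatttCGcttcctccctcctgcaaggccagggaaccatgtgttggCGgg

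The window of Jun held 15 CG, that of Id2 21 and that of Zfp503 19, against 6 for Ahsg, 4 for Apoa1 and 7 for Cytip. CG reads the same on both strands. Over all 31396 RefSeq windows of this length, the median was 7 CG, 94.8% held at least 1 and 44% held 10 or more. The windows in very broad regions had a median of 21 CG in liver (1289 windows), 23 in both kidney (362) and B cells (657), and 26 in lung (306). The median was 26.5 over the 128 windows in regions very broad in all 4 tissues. In regions very broad in 1 tissue only it was 18 in liver (860 windows), 21 in B cells (318), 19 in kidney (67) and 29 in lung (36). The lower quartile was 7 in the windows of liver only and 9 in those of B cells only. Ahsg, Apoa1 and Cytip thus lay below most windows of their kind, and the windows shown do not stand for the members. Several windows of 1 gene can overlap, so these counts are not of independent promoters.

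Very broad hotspots were most numerous in 2 of the liver sets, and their number differed widely between hybrids of the same tissue. In liver, B6x129 had 2421, B6xC3H 1662, B6xCAST 282, B6xPWK 365 and B6xSPRET 239. In kidney, the same hybrids had 86, 361, 441, 291 and 114. In lung they had 272, 23, 449, 43 and 151. Only B6x129 and B6xC3H livers stood above all other sets, and the next highest set was B6xCAST B cells with 845. In B cells, B6x129 had 610, B6xC3H 45 and B6xPWK 403, and in B6xSPRET they made up 0.145% of the set's hotspots. No hybrid was highest in every tissue, as B6xC3H was second in liver and lowest in lung and B cells. The mean was 994 ± 994 in liver (SD, n = 5) and 284 ± 237 in the other 15 sets. Width chose these hotspots, so the difference of 710 is a description. It rested on the B6x129 and B6xC3H sets, as without them liver had a mean of 23.1 fewer than the other tissues (difference -23.1).

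**Figure D1:**
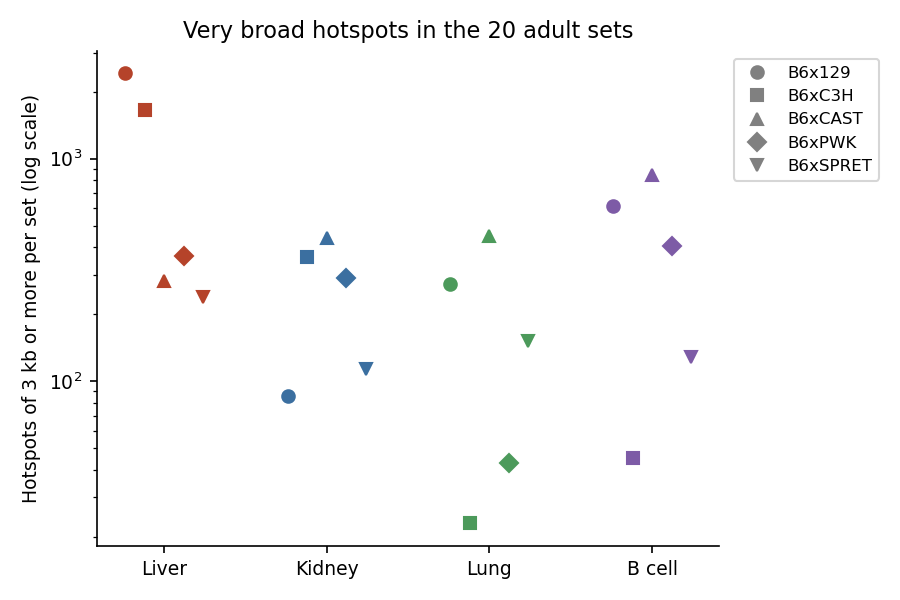
Number of autosomal hotspots of 3000 bp or more in each of the 20 adult sets, on a log axis, by tissue, with 1 marker shape per hybrid. B6x129 and B6xC3H liver, with 2421 and 1662, lie above every other set, and the remaining sets run from 23 to 845.

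The plot of counts by set shows the B6x129 and B6xC3H liver sets apart from the other 18. They weighed on the liver members in the same way: 851 of 1355 (62.8%) were very broad in these hybrids only. The same stretches were open in the other 3 hybrids. There, hotspots covered a median of 75% of each such region in a median of 4 pieces, the widest of 1610 bp, and 99.6% of the region and set combinations held a hotspot. The same held elsewhere. Of the lung members, 107 of 245 (43.7%) were very broad in B6x129 and B6xCAST only, and the other hybrids covered a median of 77.7% of them in 3 pieces. Of the B cell members, 189 of 581 (32.5%) were very broad in B6x129 and B6xCAST only, with a median of 78.8% covered elsewhere. In these hybrids the stretches were thus open in several pieces where the others had 1 joined hotspot. The number of very broad hotspots did not follow the number of all hotspots throughout. B6x129 liver had the most of all hotspots (286482, covering 125.7 Mb) and B6xC3H B cells the fewest (76055, 28.24 Mb, 45 very broad), but B6x129 kidney had 232440 (78.15 Mb) with 86 very broad, and B6xCAST B cells 151020 (66.86 Mb) with 845. By the read totals that the study lists, the most deeply read set of each tissue also had the most very broad hotspots. These were B6x129 in liver and B6xCAST in kidney, lung and B cells. Below the top set the 2 orders differed in each tissue. The part of sequencing depth in the joining was not tested. Restricted to B6xCAST, B6xPWK and B6xSPRET, with regions in 2 or more of these 3, there were 369 members in B cells, 232 in liver, 202 in kidney and 120 in lung.

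A hybrid left out of the choice of members showed the same picture. Regions chosen in 4 hybrids were very broad again in 97.5% of 482 cases in B6x129 liver and in 93.6% of 497 in B6xC3H liver, against 15.6% to 23.4% in the other 3 livers. In kidney the share ran from 24.7% in B6x129 to 79.8% in B6xCAST. In lung it ran from 8.26% in B6xC3H to 88.4% in B6xCAST, and in B cells from 7.4% in B6xC3H to 93.1% in B6xCAST. A hotspot of any width lay in 99.48% to 100% of the regions in every left-out set. The hotspots of the left-out set covered a median of 67.3% of each region in B6xC3H B cells, the lowest of the 20, and of 99.9% in B6x129 liver, the highest.

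Within tissues, few members were very broad throughout. In liver 888 were very broad in 2 hybrids, 247 in 3, 134 in 4 and 86 in 5. In kidney these numbers were 135, 89, 54 and 35, in lung 138, 77, 23 and 7, and in B cells 271, 209, 74 and 27. The median member was 4309 bp long in liver, and 3882 to 4000 bp long in the other tissues. Liver members spanned 7.2 Mb together, those of B cells 2.55 Mb, of kidney 1.5 Mb and of lung 1.05 Mb. The threshold cut through a smooth range of widths. In each tissue the narrowest hotspot inside was 3000 bp wide and the widest outside 2996 to 2999 bp. Liver had 593 hotspots in the 100 bp below the threshold and 495 in the 100 bp from it, and lung had 140 and 141. Per set, 47.8% to 94.1% of the very broad hotspots reached the ceiling of 100 on the −log10 FDR of the hotspot caller, against 1.22% to 14.3% of all hotspots. Each hotspot has 1 such value, and whether width alone raises it was not tested.

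The widest hotspot of each tissue lay at a locus that need not be particular to that tissue. In liver it was 26705 bp wide, in B6xC3H at chr14:41099857-41126561, and held the start of Mat1a, the liver enzyme that makes S-adenosylmethionine. In kidney it was 17484 bp wide, in B6xC3H at chr11:96338417-96355900, with the starts of Hoxb3 and Hoxb2, homeobox genes of the axial pattern. In B cells it was 13753 bp wide, in B6xCAST at chr7:28371027-28384779, with the starts of Plekhg2, a guanine nucleotide exchange factor, and Zfp36, which destabilizes AU-rich mRNAs. In lung it was 9622 bp wide, in B6xCAST at chr19:5835179-5844800, within the locus of Neat1, the noncoding RNA that scaffolds paraspeckles.

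Liver members were less often promoters than those of the other tissues and held fewer CpG. The share of very broad hotspots with the start of a protein-coding gene was 58.4% in B6xPWK liver, 61.5% in B6xSPRET, 64.3% in B6x129, 65.1% in B6xC3H and 68.4% in B6xCAST, while the other 15 sets ran from 69.1% to 91.3%, without overlap. The liver mean was 63.5% ± 3.81 (SD, n = 5) against 82.3% ± 5.87 (n = 15), lower in 5 of 5 hybrids (exact permutation test, two-sided, tissue labels exchanged within hybrids in 1024 arrangements, p = 0.000977, the smallest these can give, adjusted p = 0.00586). The adjustment was over 24 tests, 6 measures in 4 tissues, with the number of hotspots as the measure that is only described here. The CpG ratio, the number of CG dinucleotides over that expected from the C and G content, averaged 0.457 ± 0.0359 per liver set and 0.634 ± 0.0582 in the others. It ran from 0.43 to 0.509 in liver and from 0.544 to 0.713 elsewhere, again without overlap (exact permutation test, adjusted p = 0.00586, lower in 5 of 5 hybrids).

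Fewer liver hotspots were shared with embryonic stem cells. A DNase-seq hotspot of mESCs overlapped 72.9% ± 4.16 of the very broad hotspots per liver set and 92.7% ± 4.8 per other set. The liver sets ran from 68% to 79.4% and the others from 84.6% to 100% (exact permutation test, adjusted p = 0.00586). A CTCF hotspot of mESCs overlapped 45% ± 3.79 in liver and 58.2% ± 5.89 elsewhere (adjusted p = 0.00586 by the same exact test), lower in 5 of 5 hybrids, although B6xC3H lung at 47.8% lay below B6xCAST liver at 51.8%. The GC content was 51.9% ± 1.72 in liver against 56.3% ± 2.43 (exact permutation test, adjusted p = 0.0273). Leaving out B6x129, B6xC3H or B6xSPRET ended the call on GC, with adjusted p-values of 0.0938, 0.0833 and 0.0833. With the 3 remaining hybrids after both B6x129 and B6xC3H were left out, the liver differences were -17.4 points for coding starts, -0.146 for the CpG ratio, -18.1 points for mESC DNase-seq and -12.8 points for CTCF. None passed then. The smallest p that 3 hybrids allow in the exact test is 0.0156 before adjustment. Coding starts, the CpG ratio and mESC DNase-seq reached it (adjusted p = 0.0938), while CTCF did not (p = 0.0312, adjusted p = 0.15).

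Lung differed the other way. Its very broad hotspots had a GC content of 58.4% ± 1.1 against 54.1% ± 2.57 in the other 15 sets (exact permutation test, adjusted p = 0.0273, higher in 5 of 5 hybrids). The CpG ratio was 0.683 ± 0.0433 against 0.558 ± 0.0865 (exact permutation test, adjusted p = 0.041), and a mESC DNase-seq hotspot overlapped 97.8% ± 2.65 against 84.4% ± 9.11 (exact permutation test, adjusted p = 0.041). Coding starts, at 86.8% ± 4.17 against 74.5% ± 9.35, and CTCF, at 62% ± 8.02 against 52.5% ± 6.49, did not pass (adjusted p = 0.0521 and 0.0656 by the same exact test). Leaving out any hybrid ended those on the CpG ratio (adjusted p = 0.082 to 0.131) and on mESC DNase-seq (0.0781 to 0.131), and leaving out B6x129, B6xC3H, B6xCAST or B6xPWK ended that on GC (0.0563 to 0.125). The other 15 sets include those of liver, so these lung differences hold part of the liver difference. Kidney and B cells averaged 55.6% and 54.9% for GC and 0.612 and 0.607 for the CpG ratio. For mESC DNase-seq they averaged 90.1% and 90.2%. Lung against these tissues alone was not tested. B6xC3H lung rests on 23 hotspots and B6xPWK lung on 43. Kidney and B cells passed for no measure, with adjusted p-values of 0.463 to 0.992 for these 5 features.

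**Figure D2:**
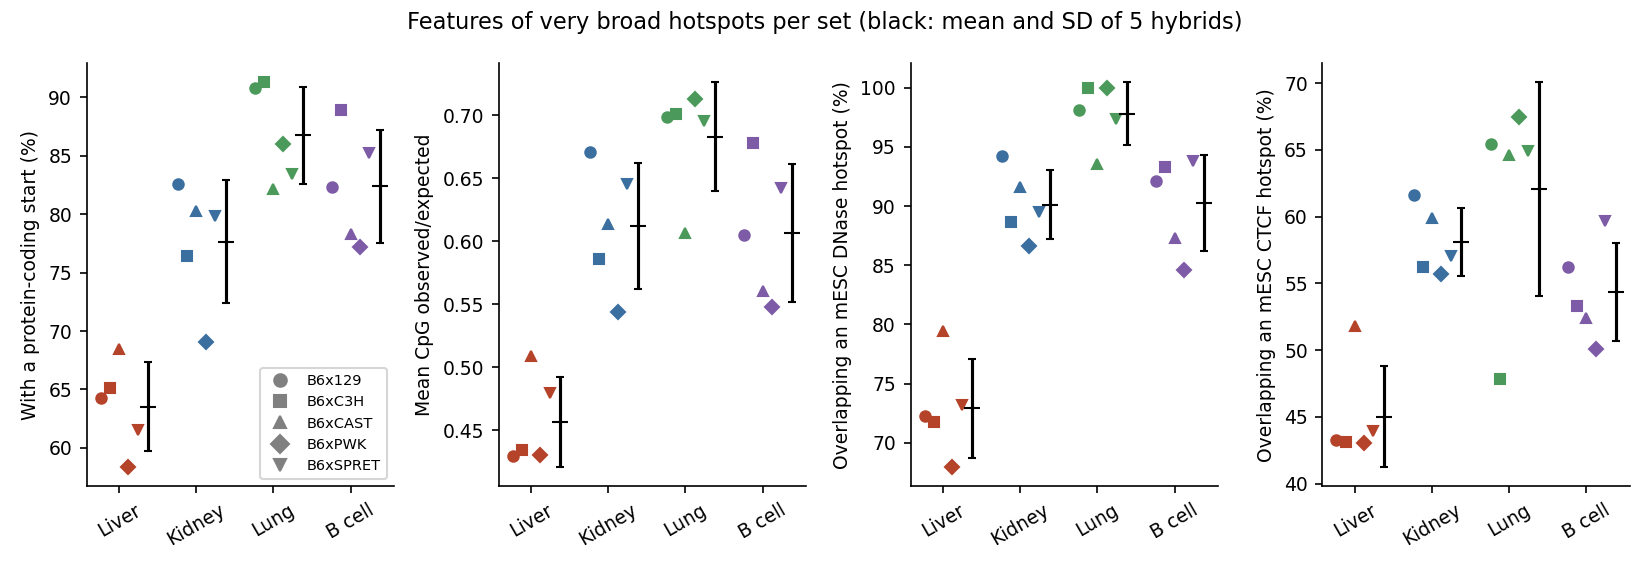
Features of the very broad hotspots in each of the 20 sets, by tissue, with 1 marker shape per hybrid. The liver sets lie below all other sets for the share with a coding start (58.4% to 68.4%), the CpG ratio (0.43 to 0.509) and the share with a mESC DNase-seq hotspot (68% to 79.4%), while the CTCF share overlaps.

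The panels of features by set have a counterpart in narrower hotspots, where liver was also lowest. Among hotspots of 1000 bp to under 2000 bp, the mean share with a coding start was 39.7% ± 7.78 in liver (SD, n = 5 sets), against 60.3% to 70.8% in the other tissues. Among those of 2000 bp to under 3000 bp it was 62.5% ± 6.99 in liver, against 79.2% to 85.9%. From there to the very broad class the means moved by less than these SDs, to 63.5% in liver and 77.6% to 86.8% elsewhere. The mean share with a CTCF hotspot was higher in each wider class, in liver from 23.4% through 38.4% to 45%, and in lung, the highest, from 35.3% through 49.9% to 62%. A wider hotspot can overlap more of anything. Per 10 kb of hotspot, the mean number of coding starts was lower, from 5.77 to 3.22 in liver, 10.9 to 5.11 in lung, 9.21 to 4.98 in B cells and 9.03 to 4.26 in kidney, between the narrowest and the widest of these classes.

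By region, 972 of 1355 liver members held a coding start (71.7%, Wilson 95% interval 69.3% to 74.1%), 485 of 581 in B cells (83.5%), 252 of 313 in kidney (80.5%) and 218 of 245 in lung (89%). These intervals cover counting error only. Liver had 247 members inside a gene but away from its start and 136 between genes, and the other tissues had 35 and 26 in kidney, 8 and 19 in lung and 36 and 60 in B cells. Members without a start were poor in CpG. Their median CpG ratio was 0.2289 in liver, 0.3207 in kidney and 0.2807 in B cells, against 0.5143, 0.6552 and 0.6565 for members with a start. In lung the medians were 0.5796 and 0.6969. A ratio above 0.6, a usual mark of a CpG island, was found in 28.5% of liver members and 55.6% of B cell members, against 57.8% in kidney and 73.9% in lung.

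Where 1 gene started in a member, the open stretch reached further into the gene than before it. In liver the median was 1463 bp upstream and 2884.5 bp downstream over 868 members, and 686 (79%) were longer downstream. In kidney 157 of 219 were longer downstream (71.7%), in lung 144 of 198 (72.7%) and in B cells 317 of 423 (74.9%), with medians of 2448 to 2570 bp downstream and 1448 to 1532 bp upstream. The stretch covered a median of 6.06% to 9.5% of the gene. It spanned at least 50% of the gene in 134 liver, 27 kidney, 38 lung and 65 B cell members.

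Merged over tissues, the members formed 1807 loci, of which 1422 (78.7%) were very broad in 1 tissue, 183 in 2, 106 in 3 and 96 in all 4. Liver alone had 1010, B cells 307, kidney 73 and lung 32. The share of members that overlapped a very broad region of another tissue was 25.5% in liver and 47.2% in B cells, against 76.7% in kidney and 86.9% in lung. Between liver and kidney, 209 liver members (15.4%) overlapped 210 of kidney (67.1%). Liver and lung shared 181, which is 13.4% of the liver and 73.9% of the lung members. Between liver and B cells, 245 liver members (18.1%) overlapped 243 of B cells (41.8%), and between lung and B cells 164 lung members (66.9%) did. Without B6x129 and B6xC3H the share in liver was 32.8% and in B cells 31.4%.

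**Figure D3:**
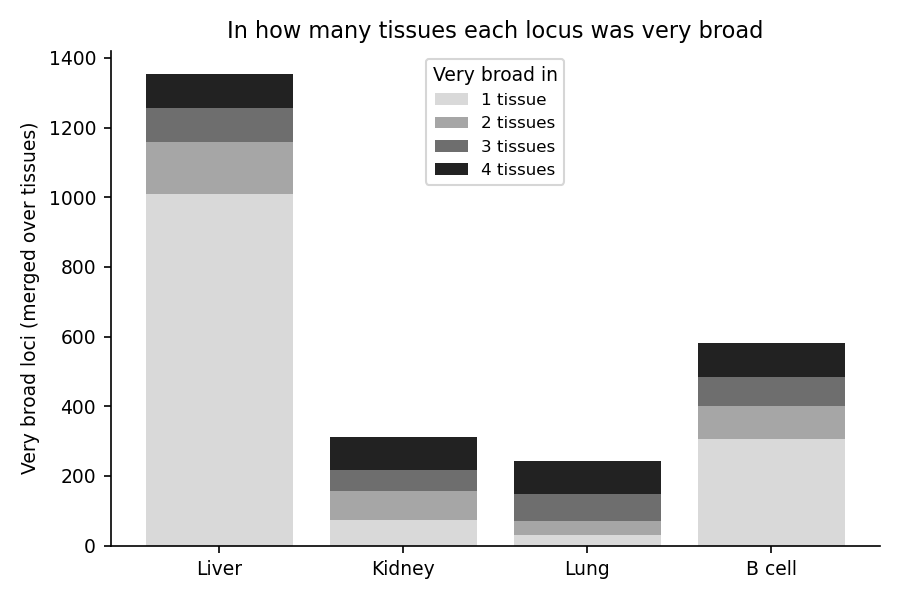
Number of very broad loci of each tissue, split by the number of tissues in which the locus was very broad. Most liver loci (1010) and most B cell loci (307) were very broad there alone, against 73 in kidney and 32 in lung, and 96 loci were very broad in all 4.

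The bars of shared loci count width, not openness. A hotspot of any width lay in every set of the 3 other tissues for 67.1% of liver and 79.2% of kidney members, and for 92.7% of lung and 90.2% of B cell members. Only 24 liver members and 1 kidney member had none in any set of another tissue, while each lung and B cell member had 1 or more. The same counts over all regions of a tissue are not given here. With a region of any width in another tissue as the measure, 94.1% of liver members overlapped one in kidney, where 52.7% of all liver regions did. In liver, 98.4% of kidney members did (all kidney regions 59.1%), 100% of lung members (54.2%) and 97.8% of B cell members (60.6%). A wider region can overlap more of anything. Liver members had a median length of 4309 bp, while the median hotspot of a liver set was 264 to 283 bp wide. The liver members very broad in liver alone had a coding start in 66.2% and a median CpG ratio of 0.3307, against 87.8% and 0.6501 for those shared. In B cells the ratios were 0.5067 and 0.6974, and in kidney 0.4687 and 0.664. In lung the 32 unshared members had a ratio of 0.6446 against 0.6954.

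In liver, the 5 widest regions found in all 5 hybrids lay at Neat1, Errfi1, Cyp2e1, Necab2 with Osgin1, and Ahsg. The Neat1 locus, chr19:5821827-5844800, held hotspots of 22974, 17767, 8240, 13581 and 13538 bp (here and below in the order B6x129, B6xC3H, B6xCAST, B6xPWK, B6xSPRET, where 5 values are given), and was very broad in the other tissues too. A region at chr4:150861857-150874732 in the gene body of Errfi1, an inhibitor of EGF receptor signalling, had 12306, 12876, 9136, 12296 and 4855 bp, and was very broad in kidney as well. The region with the starts of Necab2 and Osgin1, chr8:119427435-119450094, had 22660, 12134, 9792, 9634 and 3228 bp.

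The 5 widest of the liver regions that were very broad in no other tissue lay at Cyp2e1, Necab2 with Osgin1, Ahsg, Plg and Tat. Cyp2e1, the ethanol-oxidizing cytochrome P450, was open along its body 1565 bp or more from its start, at chr7:140765410-140775619, with 10210, 9849, 3216, 9826 and 8829 bp. The B6xCAST liver stood apart here, yet its hotspots covered 9632 bp of the region, so that the stretch was open but broken up. In kidney the widest hotspot was 304 to 813 bp and in lung and B cells at most 93 bp. Ahsg, the plasma protein fetuin-A, lay in chr16:22884534-22902513 with 17980 bp in B6x129 and 8664 to 9528 bp in the others. Kidney had at most 367 bp there, lung at most 413 bp and B cells at most 1027 bp. Plg, the precursor of plasmin, lay in chr17:12377457-12388671 with 11215, 8394, 6537, 8342 and 4013 bp, and its widest hotspot was 608 bp in kidney, 223 bp in lung and absent in the B cell sets. Tat, tyrosine aminotransferase, was open over chr8:109993505-110001608 inside the gene, with 7983, 8030, 3961, 8069 and 3800 bp, and no kidney or B cell set had a hotspot there.

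In kidney, all 35 regions found in 5 hybrids overlapped a very broad region of another tissue. The widest lay at Zfp503, a zinc finger repressor of development, at chr14:21981356-21996120. Its hotspots in kidney were 7736, 14662, 14675, 14172 and 11764 bp wide, against 2646 to 5766 bp in lung, 469 to 4608 bp in liver and 201 to 973 bp in B cells. Kidney thus lay above all other sets without overlap. Next came Id2 (chr12:25092110-25101449, 4605 to 9207 bp), an inhibitor of bHLH factors, then Myc (chr15:61983013-61988496, 3638 to 5478 bp), Bcl6 (chr16:23981903-23992530, 3318 to 10577 bp) and Jun (chr4:95049706-95054335, 4402 to 4630 bp).

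In lung, 7 regions were very broad in 5 hybrids, and all 7 were very broad in every other tissue. The widest by median were at Tgif1, a homeobox repressor of TGF-beta signalling, with 6956, 3517, 6149, 3618 and 5101 bp, at Jun with 4315 to 6240 bp, and at Zfp36l1, an mRNA decay factor, with 3705 to 4697 bp. Ppp2r3d, a phosphatase subunit, at chr9:124422466-124426657, and Tnrc18 at chr5:142812878-142824020 followed. The remaining members of this kind held the starts of Bhlhe40, a repressor of the clock, and Nr3c1, the glucocorticoid receptor.

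In B cells, the widest regions lay at genes of signalling, adhesion and antigen presentation. The region of Plekhg2 and Zfp36, chr7:28371027-28384847, had 10131, 4992, 13753, 10105 and 4843 bp. The liver sets had 2747 to 5451 bp there. Cytip, which tunes lymphocyte adhesion, lay in chr2:58155141-58161683 with 6229, 4928, 6512, 6420 and 3681 bp, against at most 2283 bp in the other tissues. Cd74, the invariant chain of MHC class II, at chr18:60802379-60814892, had 11591, 5356, 12507, 5603 and 4100 bp, and 382 to 1335 bp elsewhere. Marcks had 4979 to 6148 bp and Tgif1 5325 to 7595 bp.

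Further regions that were very broad in B cells only showed different kinds of sequence. The joining segments Ighj1 to Ighj4 of the immunoglobulin heavy chain lay in chr12:113425259-113429845, with 4587, 4336, 4567, 4508 and 3446 bp, against 100 to 478 bp in other tissues. This region had a CpG ratio of 0.1596 and no mESC hotspot. Kctd12, an auxiliary subunit of GABA-B receptors, lay in chr14:102979595-102983832 with 3127 to 4167 bp in B cells, a CpG ratio of 0.8057 and hotspots of 1159 to 3720 bp elsewhere. It was 3275 bp wide in B6x129 liver and 3720 bp in B6xC3H kidney, so that it missed the rule in those tissues by 1 hybrid. A region between genes, chr17:83275817-83279723, 60525 bp from the start of Pkdcc, had 3793, 3111, 3665, 3889 and 3216 bp in B cells and 975 to 1281 bp in the other 15 sets.

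**Figure D4:**
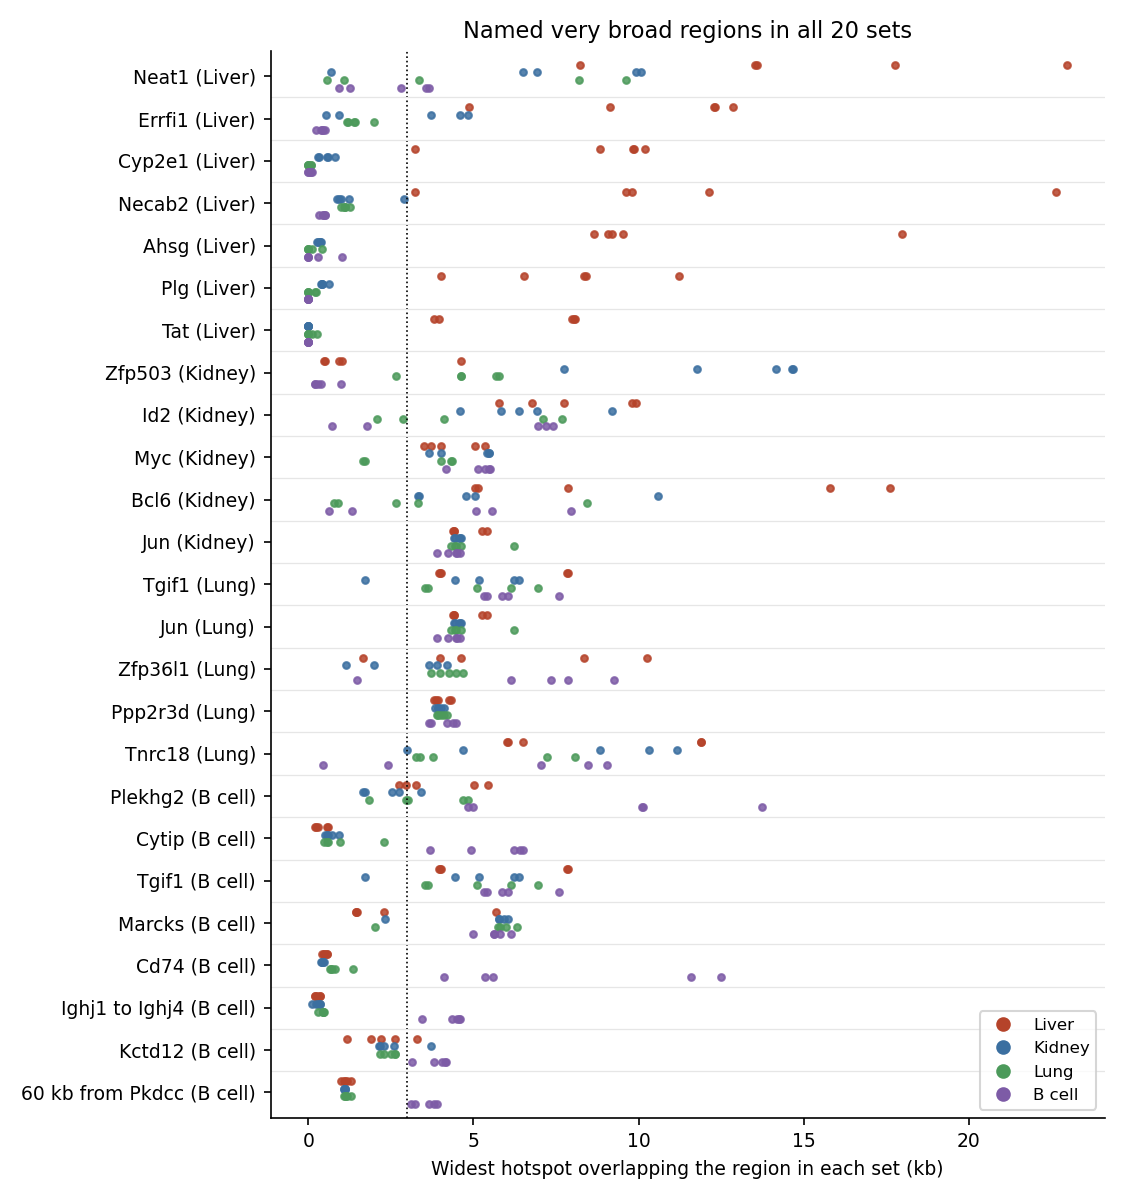
Width of the widest hotspot in each of the 20 sets at named very broad regions, in kb on a linear axis, coloured by tissue, with the tissue that named the region in brackets and a dotted line at 3 kb. At Ahsg, Plg, Tat and Cyp2e1 the liver sets reach 3216 to 17980 bp while the other sets have at most 1027 bp, and at Jun all 20 sets lie between 3882 and 6240 bp.

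The plot of widths at named regions sets these against the loci that were very broad in all 4 tissues. The 5 widest of those by the median over 20 sets were Id2 (6861.5 bp, very broad in 16 of 20 sets), Tnrc18 (6770 bp, 17 sets), the Neat1 locus (6712 bp, 14 sets), Tgif1 (5361.5 bp, 19 sets) and Bcl6 (5046.5 bp, 15 sets). Jun, the partner of Fos in AP-1, was very broad in 20 of 20 sets, with hotspots of 3882 to 6240 bp, and mESCs also had a hotspot of 4176 bp there. Ppp2r3d was as steady, with 3660 to 4462 bp in 20 sets. At Bcl6, a transcriptional repressor, the sets ranged from 636 bp in B6xC3H B cells to 17603 bp in B6x129 liver, and all 5 liver sets had at least 5036 bp.

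Of 33 liver identity genes, 23 (69.7%) started in a liver member, 1 in a lung member and 0 in kidney and B cells, while over all 20720 autosomal protein-coding genes 5.17% did in liver, 2.64% in B cells, 1.39% in kidney and 1.15% in lung. Of 31 B cell identity genes, 15 (48.4%) started in a B cell member and 1 in each other tissue. Of 29 kidney identity genes, 5 (17.2%) started in a kidney member, 2 in a liver member, 2 in a B cell member and 1 in a lung member. Bcl6 is 1 of the 5, but it was very broad in all 4 tissues and does not mark kidney here. Its median width was largest in liver (7868 bp, against 4769 bp in kidney), where its RNA was also highest. Of 26 lung identity genes, 0 started in a lung member, while 3 did in liver and 1 in kidney. Without B6x129 and B6xC3H the count was 5 instead of 23 in liver, 14 instead of 15 in B cells and 4 instead of 5 in kidney. These lists were chosen with results of the data known, and the counts are a description.

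The liver genes comprised plasma proteins and their regulators. Apoa1 and Apoc3, apolipoproteins that start in the same region (chr9:46228106-46236142), had hotspots of 7970, 5240, 5102, 5163 and 3329 bp. Cebpa, a hepatocyte transcription factor, had 7879, 7906, 3811, 3952 and 3325 bp, and Prox1, another such factor, 3096 to 8376 bp. Pck1, the enzyme at the entry of gluconeogenesis, had 4091 to 8658 bp and the fibrinogen chain Fgb 3532 to 5295 bp. In the kidney list, Sim1 had 641 bp in B6x129 and 4980 to 11321 bp in the other 4 hybrids, and the factors Tfap2b, Pax2 and Lhx1 were very broad in 3, 3 and 2 hybrids. Solute carriers and aquaporins of the kidney list were not among the members. In B cells, Mef2c had 5309, 1191, 7387, 5746 and 3155 bp. H2-Ab1, of MHC class II, reached 3000 bp in 4 hybrids, and the lineage factors Ebf1 and Pax5 and the kinase Blk in 3.

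Immediate early genes started in members of every tissue: 23 of 37 in B cells (62.2%), 17 in lung, 15 in liver and 6 in kidney. Without B6x129 and B6xC3H these counts were 17, 7, 4 and 6. In B cells, Klf6 and Jund joined Zfp36, Myc and Jun in all 5 hybrids. Dusp6, a phosphatase of ERK, was very broad in 5 hybrids in liver with 3405 to 6424 bp and in 4 in B cells. Of 19 clock genes, 10 started in liver members, 5 in kidney, 3 in lung and 2 in B cell members. Without these hybrids, 3 did in kidney and 2 in each other tissue. Bhlhe40, a repressor in the clock, was very broad in all 5 hybrids in each tissue, with 3001 to 8698 bp over 20 sets. Dbp, a clock output factor, had 15506, 6907, 3727, 2172 and 9135 bp in liver. Of 15 housekeeping genes, 5 started in liver members, 3 in B cell, 2 in lung and 1 in kidney members. Gapdh was very broad in 4 hybrids in liver and in kidney.

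Few markers of other cell types started in members, and few genes at large did. The share of all autosomal protein-coding genes was 5.17% in liver, 2.64% in B cells, 1.39% in kidney and 1.15% in lung. At such shares a short list can hold few or none, so the counts below do not set these genes apart. Of 16 endothelial genes, 0 started in liver, kidney and lung members and 1, Pecam1, in a B cell member. Of 18 genes of T, myeloid and erythroid cells, 0 started in a member of any tissue. In the RNA libraries 1 marker shown per tissue had its highest counts under that label. Alb was counted 95 to 767 times in liver libraries and at most once elsewhere, Umod 9 to 26 times in kidney and Sftpc 17 to 56 times in lung with 0 elsewhere, and Cd79a 4 to 19 times in B cells against at most 4. In B cells, Cd3e of T cells was counted 0 to 1 times, Lyz2 of myeloid cells 0 times and Hbb-bt of red cells 0 to 1 times, while in lung Lyz2 was counted 10 to 24 times. Pecam1 of endothelial cells was counted 2 to 15 times in B cells and 1 to 4 times in lung. The 20 genes of T, myeloid and erythroid cells summed to 295 to 337 CPM (RNA counts scaled to the size of the library) in B cells, with 6 of them at 0 throughout, 331 to 461 in lung, 239 to 295 in kidney and 91.6 to 270 in liver. Their part in the results was not tested. Summed over its identity list, each tissue was highest under its own label. On the lung list, however, lung (587 to 872 CPM) overlapped kidney (357 to 592 CPM).

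**Figure D5:**
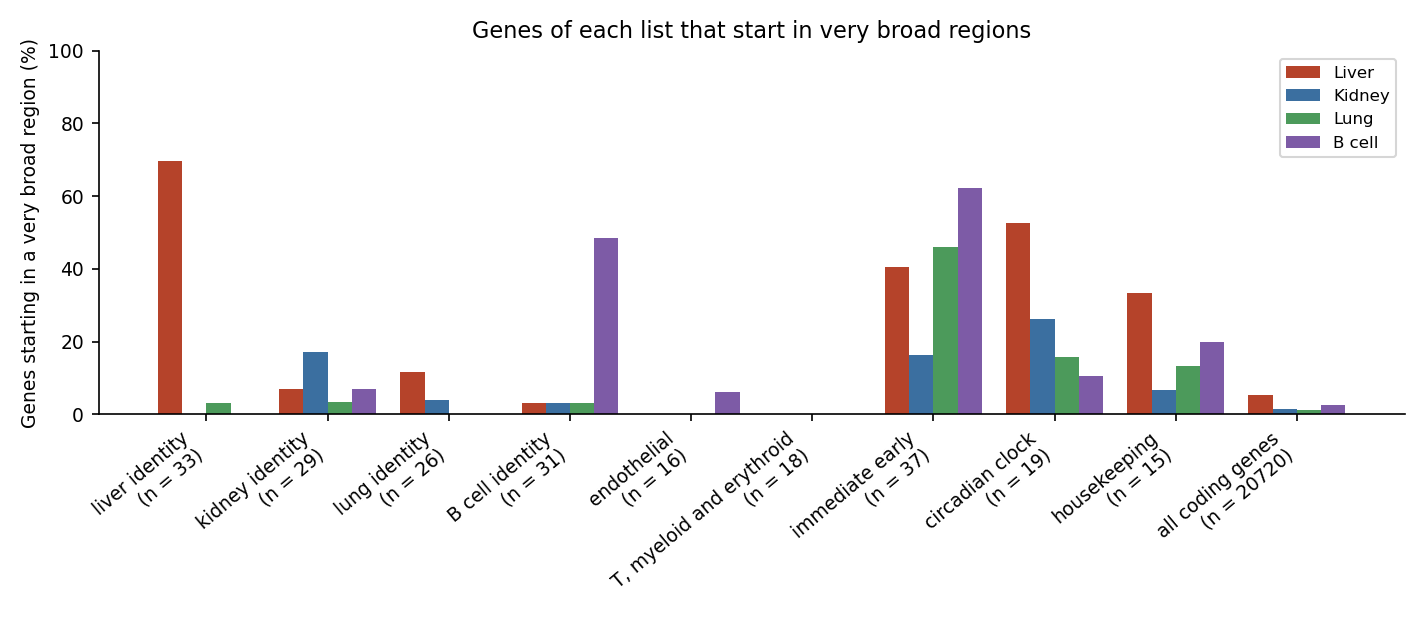
Share of the genes of each list that start in a very broad region, by tissue, in percent. The liver identity list stands at 69.7% in liver and the B cell identity list at 48.4% in B cells, and immediate early genes are present in all 4 tissues. The endothelial and T, myeloid and erythroid lists are at or near 0, where all coding genes stand at 1.15% to 5.17%.

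The bars of gene lists show the own-tissue pattern for liver and B cells. Very broad hotspots also existed in mESCs, where 110 autosomal hotspots were 3000 bp or wider (0.0979% of all). Of these, 37 (33.6%) overlapped a member of any tissue, 27 a member of liver and 24 to 25 a member of each other tissue.

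RNA-seq was used to ask whether genes that start in members had higher counts in that tissue. The libraries were shallow, with 283725 to 809337 expected counts, of which 41.9% to 47.7% fell on protein-coding genes. Actb had only 1 to 99 counts. Ccdc152, which overlaps Selenop on the other strand, had 76 to 47637 counts and Selenop 0 to 68, so the values are not read as levels of the named transcript. Whether the strand setting of the counting matched the kit was not tested. In 4479 genes that passed a filter on low counts, each tissue was compared with the mean of the other 3 by edgeR's quasi-likelihood test with Benjamini-Hochberg adjustment. A gene could pass the filter through the tissue where it is high, and in whole organs fewer cells of a type and less RNA per cell cannot be told apart.

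Of 1071 genes starting in liver members, 231 were tested. Of these, 80 (34.6%) were higher in liver, where 21.8% of all tested genes were, and 41 (17.7%) were lower, where 21.5% were. The median log2 fold change was 0.21, against -0.35 over all tested genes. The split changed with limma on log2(TPM + 1), which differs in unit, model and scaling at once: 45 were higher and 135 lower, with a median of -1.03 over the members and -1.53 over all genes. All genes moved as well, as 370 of 4479 were higher and 3168 lower in that fit. With the size factors of DESeq2 in the same edgeR test, 78 were higher and 45 lower, beside 932 and 1038 of all genes tested. Among genes very broad in liver only, 65 of 146 were higher, and among those shared with another tissue 15 of 85. In kidney, 20 of 67 tested (29.9%, background 23.2%) were higher and 7 (10.4%, background 9.31%) lower. Among the 11 tested genes very broad in kidney only, 9 were higher.

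In lung, 22 of 63 tested genes (34.9%, background 29.6%) were higher and 6 (9.52%, background 16.7%) lower. In B cells, 65 of 133 (48.9%, background 32.8%) were higher and 19 (14.3%, background 30.1%) lower, with a median log2 fold change of 0.70 against 0.01. The share was 33 of 61 for genes very broad in B cells only and 32 of 72 for the shared ones. The members' shares of higher genes in kidney and lung were close to the background, as was that of lower genes in kidney. In lung the share of lower genes was below the background, on 6 genes. With limma on log2(TPM + 1), 18 were higher and 21 lower in kidney, 33 and 3 in lung, and 82 and 13 in B cells. Of all 4479 genes tested, that fit had 697 higher and 963 lower in kidney. It had 2112 and 345 in lung, and 2067 and 1213 in B cells.

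For several named genes the CPM assigned to the gene was highest in a tissue where its region was very broad. Values are CPM, scaled by the trimmed mean of M-values. Ahsg had 329, 322, 126 and 605 CPM in the 4 liver libraries and 0 to 1.96 in the other 13, without overlap (adjusted p = 6.18e-13, edgeR). Apoa1 had 458, 353, 301 and 563 CPM in liver and 0 to 9.07 elsewhere (adjusted p = 3.02e-11, edgeR). Ahsg and Apoa1, so low elsewhere, could pass the filter on counts only through liver. Their p-values therefore describe genes already picked by liver counts and add no support of their own. Cebpa had 126 to 259 CPM in liver and 0 to 33.4 elsewhere (adjusted p = 8.39e-11, edgeR).

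Bcl6, very broad in every tissue, with the largest median over hybrids in liver (7868 bp), had 253, 306, 223 and 169 CPM in liver and 0 to 3.15 in the other tissues (adjusted p = 1.38e-13, edgeR). Hoxb3, at the widest kidney hotspot, had 327 to 442 CPM in kidney and 0 to 49.6 elsewhere (adjusted p = 1.16e-12, edgeR). In B cells, Cd74 had 16.2, 29.9, 56.6, 276 and 29.7 CPM against 0 to 4.73 (adjusted p = 6.43e-07, edgeR). Ebf1 had 18.9 to 42.2 CPM against 0 to 11 (adjusted p = 5.24e-06, edgeR), and H2-Ab1 10.8 to 126 against 0 to 21.5 (adjusted p = 4.39e-06, edgeR). All of these groups stood apart except H2-Ab1, where 1 liver library lay within the B cell range. Bcl6 and Cd74, near 0 elsewhere, could likewise pass the filter on counts only through liver and B cells. Ebf1 and H2-Ab1, low elsewhere, owed their passing to B cells as well. Cebpa in liver and Hoxb3 in kidney were high enough to pass through that tissue alone. The p-values of all these genes are therefore a description and add no support of their own.

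For other genes the CPM did not set apart the tissue with the widest hotspots. Zfp36 had 33.4 to 101 CPM in B cells (adjusted p = 0.0142, edgeR) and 52.4 to 86.7 in lung (adjusted p = 0.00434, edgeR), and the ranges overlapped. Marcks, very broad in 5 hybrids in B cells, had 18.9 to 69.9 CPM there and 61.5 to 117 in lung. Clock, very broad in liver in 3 hybrids, had 9.7 to 43.1 CPM in liver and 62.1 to 190 elsewhere, so that liver was the lowest (adjusted p = 7.11e-05, edgeR).

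Many named genes had too few counts to be tested. In liver, Cyp2e1 had 6 to 71 counts against 0 to 2 elsewhere, Plg 3 to 25 against 0 to 3, Mat1a 6 to 223 against 0 to 1, Fgb 5 to 73 against 0 and Prox1 5 to 15 against 0 to 1. In kidney, Zfp503 had 11 to 25 counts against 0 to 8 and Lhx1 7 to 21 against 0 to 1. In B cells, Cytip had 4 to 14 against 0 to 2, Myc 3 to 41 against 0 to 2, Mef2c 6 to 21 against 0 to 1 and Kctd12 8 to 22 against 0 to 5. For these genes no other tissue reached the range of the tissue named, save for Plg, where 1 other library had 3 counts. The region of Myc was about as wide in kidney as in B cells. Jun went another way. It was very broad in all 20 sets, and had 8 to 13 counts in lung and 0 to 3 in every other tissue. Necab2 had 0 counts in all 17 libraries. Its start shares a region with that of Osgin1, where the liver hotspots were 3228 to 22660 bp wide, so their width cannot be assigned to Necab2. The RNA of Osgin1 is not given here.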

How the data were processed

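DHS hotspots were taken from the deposited sets for adult liver, kidney, lung and B cells of 5 F1 hybrids and for mESCs. The authors aligned reads to mm10 and called hotspots at an FDR of 5% on the pooled libraries of a hybrid and tissue. The deposited intervals carry a score and a −log10 FDR, neither of which entered a test. The authors' RNA-seq tables hold RSEM expected counts, which were rounded here, and TPM. The labels give the groups. The B6xCAST B cell RNA library, whose strain differs between the labels and the study's table, was used for its tissue only.

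Members were found as described, with Python 3.11.15. Features per set were compared by exact two-sided permutation of tissue labels within hybrids, with Benjamini-Hochberg adjustment over 24 tests (6 measures, the number of hotspots included, in 4 tissues). RNA was tested with edgeR 4.0.16 (quasi-likelihood, TMM, filterByExpr, adjusted p under 0.05), with limma 3.58.1 and DESeq2 1.42.0 as alternatives. Code was tested on simulated data. Other widths, numbers of hybrids, left-out hybrids and libraries were tried. Named genes are the 5 widest regions found in 5 hybrids per tissue, the 5 widest of these in no other tissue, the 5 widest in all 4 tissues, up to 6 genes per list and the widest hotspot per tissue. The members and lists were chosen with earlier results of these data known. Wilson intervals have a confidence level of 95% and cover counting error only. Since each set pools its libraries, p-values over hybrids measure the spread between these pools.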

Additional observations from a re-analysis of the deposited data

Results flagged for a closer look

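Of 74 groups of 4 or 5 samples, 9 held a sample far from the others (Dixon's test), and chance gives about 1 in 20. Among features per set, these were the CpG ratio of B6xCAST lung (0.6064), the CTCF share of B6xCAST liver (51.77%) and that of B6xC3H lung (47.83%, from 23 hotspots). Among widths of the widest hotspot, they were Cyp2e1 in B6xCAST liver (3216 bp), Ahsg in B6x129 liver (17980 bp), Bcl6 in B6xCAST kidney (10577 bp), Jun in B6xSPRET lung (6240 bp) and the Ighj segments in B6xSPRET B cells (3446 bp). At Cyp2e1 and at the Ighj segments the hotspots of the low set still covered 9632 bp and 4480 bp. The RNA of Cd74 in the fourth B cell library, at 276 CPM, lay above the other B cell libraries.

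The X chromosome was left out of the members. By the same rule it held 23 very broad regions in liver, 12 in B cells, 6 in lung and 4 in kidney.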

How the results depend on the processing

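At a minimum width of 2500 bp there were 2479 regions in liver, 687 in kidney, 554 in lung and 1232 for B cells (the order of all such quartets here), 30.8% of those of liver and 52.4% of those of B cells overlapped another tissue's, and the lung difference for mESC DNase-seq (12.9 points, adjusted p = 0.0527, exact test) no longer passed. At 4000 bp the regions numbered 514, 100, 64 and 172, the overlaps were 16.9%, 60%, 81.2% and 43%, 95.3% of lung regions held a coding start, the lung difference for coding starts passed (16.3 points, adjusted p = 0.0435, exact test) and the liver difference for CTCF did not (-15.7 points, adjusted p = 0.0895). With regions in 1 or more hybrids there were 2747, 658, 547 and 997, of which 62.8% in liver, 83.9% in lung and 77.9% in B cells held a coding start, and 80.1% of lung regions overlapped another tissue's. With 3 or more hybrids there were 467, 178, 107 and 310, with a coding start in 74.7% for liver and overlaps of 69.1% for kidney and 38.7% for B cells. Starts of any gene type lay in 76.6%, 88.5%, 94.7% and 88.1%.

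Leaving out 1 hybrid gave 482 to 1349, 218 to 304, 121 to 242 and 334 to 581 regions. Overlaps with other tissues then ran from 18.1% to 32.4%, 60.5% to 78.6%, 80.6% to 92.6% and 35.8% to 49.4%. The liver GC difference ran from -5.31 to -3.88, that of lung from 3.82 to 4.98, the lung CpG ratio from 0.104 to 0.144, lung mESC DNase-seq from 11.7 to 14.9 and the difference in the number of very broad hotspots of liver, a description, from 362 to 961.

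Leaving out both B6x129 and B6xC3H, chosen after seeing the data, gave 232, 202, 120 and 369 regions, a coding start in 65.1% for liver, and overlaps of 32.8%, 58.4%, 78.3% and 31.4%. The liver differences were then -17.4 (coding starts), -3.07 (GC), -0.146 (CpG ratio), -18.1 (mESC DNase-seq) and -12.8 (CTCF), those of lung 3.67, 0.119 and 13.2 (GC, CpG ratio, mESC DNase-seq), and none passed with 3 hybrids, whose smallest p is 0.0156. Coding starts, the CpG ratio and mESC DNase-seq in liver reached that p, and the other differences did not. The direction held in all 8 differences.

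With genes kept at 1 count in 1 library, more genes were tested, and 258 genes of members were higher and 63 lower in liver, 158 higher in B cells, 52 in kidney and 49 in lung. The members' genes tested then numbered 1047 in liver, 536 in B cells, 281 in kidney and 233 in lung. Of all 28412 genes tested, 1663 were higher and 1536 lower in liver. In B cells 3140 were higher, in kidney 2397 and in lung 3839. With limma on log2(TPM + 1) the counts were 45 and 135 in liver, 21 lower in kidney and 3 lower in lung, and Tbp turned in liver to a log2 fold change of -0.63. Over all 4479 genes the limma fit gave 370 and 3168 in liver, 963 lower in kidney and 345 lower in lung. This fit differs from the main one in unit, model and scaling, and the cause was not tested. With DESeq2 itself, 680 of all genes tested were lower in kidney against 417. The size factors of DESeq2 alone moved none of the RNA counts given by 1.5 times or more, nor did an FDR of 1% or other overlaps move the region counts and shares given beyond these limits. The labels give no replicate numbers that tissues share. The tests over sets were matched by hybrid. For genes of members, an RNA fit with hybrid as a term gave 79 higher and 38 lower in liver, 20 and 8 in kidney, 23 and 6 in lung, and 53 and 19 in B cells. Of all 4303 genes tested in that fit, 1002 were higher and 952 lower in liver and 1070 and 443 in kidney. In lung there were 1339 and 807, and in B cells 1323 and 1294. The low RNA counts limit which genes could be tested.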
